A study of Mus musculus with 6 samples.

Results

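The genes described here are the 5 subunits of the muscle acetylcholine receptor (Chrna1, Chrnb1, Chrnd, Chrng and Chrne) and 5 genes of the agrin-MuSK pathway that clusters it (Agrn, Lrp4, Musk, Dok7 and Rapsn). They were chosen by gene name: 10 genes of the 49592 in the deposited expression table, and each name matched a single row. They were measured in C2C12, an established line of mouse myoblasts whose cells fuse to myotubes once serum is lowered. The cells behind all 6 libraries were grown in 10% serum and differentiated for 3 days in 2% serum; those of 3 libraries then received TWEAK (a TNF-like cytokine) at 10 ng/ml for 12 h, and those of the other 3 stayed without it. The labels name no other genotype or agent, give a single line, and number the libraries of each group as trials 1, 2 and 3 without saying whether a trial was an independent culture. The p-values therefore reflect only variation among these libraries, which may be technical. The comparison asks how transcript levels differ between these differentiated cultures with and without TWEAK.

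At the neuromuscular junction, motor neurons release acetylcholine onto a pentameric ion channel in the muscle membrane. Fetal and denervated muscle builds this channel with the gamma subunit (Chrng), and adult muscle replaces gamma by epsilon (Chrne), which changes how long the channel stays open. Agrin from the nerve binds Lrp4, which activates the receptor kinase MuSK; Dok7 binds MuSK inside the cell and sustains its activity, and rapsyn (Rapsn) holds the receptors together in dense clusters. Myotubes of the C2C12 line have no nerve, and they make the fetal form of the receptor and form clusters when agrin is added. In muscle the receptor genes are driven through E-boxes bound by the MyoD family of transcription factors, and genes that are active under the synapse, such as Chrne, also through the N-box bound by ETS factors.

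Stretches of 155 bases ahead of the start sites are given here for 4 of the genes. These are Musk, the member that fell, Chrna1, the most abundant, and Chrng and Chrne, the fetal and adult alternatives. The expression results below do not rest on these sequences. They run 5′ to 3′ in the direction of the gene, from 180 to 26 bases before the start, and come from RefSeq with the build GRCm38.p6. The other coordinates given below are those of the deposited table, in GRCm39. Capitals mark E-boxes (CANNTG, which reads as an E-box on both strands) and the N-box (CCGGAA, searched on both strands).
Musk (chr4:58285782-58285936, plus strand): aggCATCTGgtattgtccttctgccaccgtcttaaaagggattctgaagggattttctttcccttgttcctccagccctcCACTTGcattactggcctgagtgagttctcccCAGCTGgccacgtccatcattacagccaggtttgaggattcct
Chrna1 (chr2:73580364-73580518, minus strand): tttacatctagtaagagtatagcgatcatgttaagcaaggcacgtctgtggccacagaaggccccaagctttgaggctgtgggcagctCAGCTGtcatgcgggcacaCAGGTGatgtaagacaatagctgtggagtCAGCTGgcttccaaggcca
Chrng (chr1:87205631-87205785, plus strand): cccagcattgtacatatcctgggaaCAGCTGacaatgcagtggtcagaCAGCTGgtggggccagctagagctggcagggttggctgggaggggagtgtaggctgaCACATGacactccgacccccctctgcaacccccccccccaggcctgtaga
Chrne (chr11:70619220-70619374, minus strand): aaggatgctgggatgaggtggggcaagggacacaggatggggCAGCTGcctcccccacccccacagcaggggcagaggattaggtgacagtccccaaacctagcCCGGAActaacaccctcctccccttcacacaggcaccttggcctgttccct
Of the 10 genes, 7 had a window in the RefSeq table, counted over 250 bases before each start; Chrnd, Lrp4 and Rapsn had none. Some genes had more than 1 window, and an E-box was found in 7 of the 9 member windows, 1 for each of these 7 genes, beside 66.2% of the 32851 windows of all genes. Chrna1, Chrnb1, Chrng and Musk each held 3 E-boxes, as did, with 3 or more, 12.2% of all windows. Chrne was the single member with an N-box, 76 bases before its start, against 12.0% of all windows. The kappaB consensus, the site of NF-kB, was also searched on both strands. It was found in 3.9% of all windows and in 1 member window, at Dok7, 15 bases before the start. The Dok7 match is on the strand opposite the gene, and the letters along the gene are GGGGTGCCCC. It overlapped no E-box or N-box. These matches describe letters in a window and show no binding.

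Expression is given as FPKM, fragments scaled by gene length and sequencing depth, which can be compared between genes because it is per length. In untreated myotubes the levels ran from 335.6 FPKM for Chrna1 down to 1.94 for Chrne. The order was Chrna1, Chrng, Chrnd, Rapsn, Chrnb1, Lrp4, Dok7, Musk, Agrn and Chrne. Neighbours in that order differed by more than the spread of the untreated libraries except Rapsn and Chrnb1, and Dok7 and Musk, whose ranges overlapped. Among the 12770 genes tested, 98.9% had a lower mean untreated level than Chrna1, 98.3% than Chrng, 90.7% than Lrp4, 77.5% than Musk, 44.2% than Agrn and 18.5% than Chrne. The 10 genes together took 0.347% to 0.370% of the recovered reads in untreated libraries and 0.299% to 0.337% in TWEAK libraries. These ranges did not overlap. Taken singly, 15.9% of all genes tested had every TWEAK library below every untreated one. The sum follows the most abundant members. Chrna1 gave 38614 of the 100382 member reads in TWEAK replicate 1, and its own groups overlapped.

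**Figure D1:**
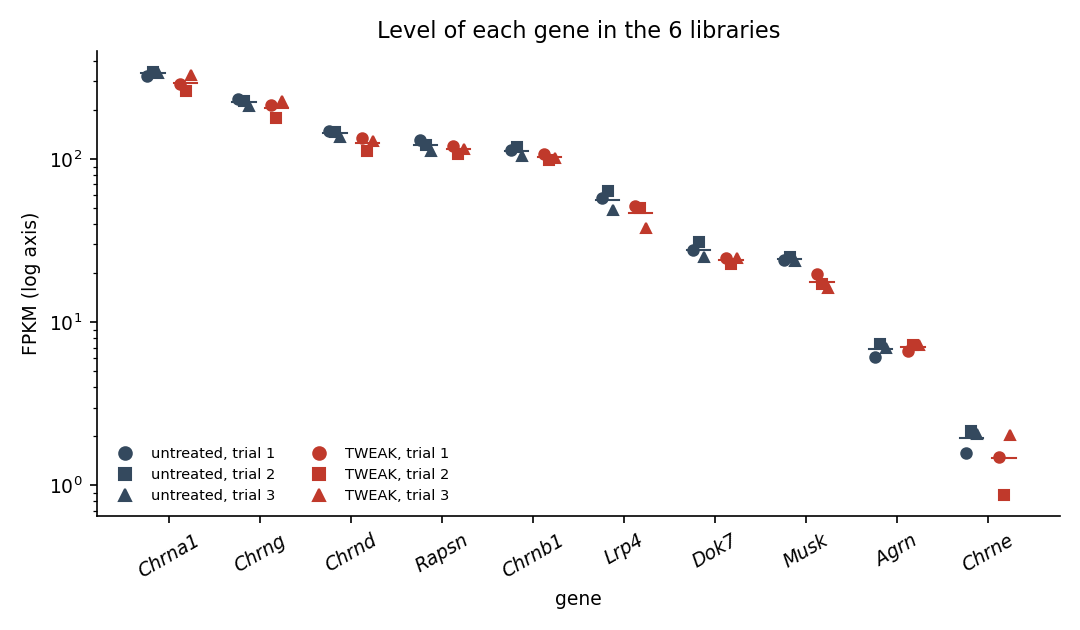
FPKM of each gene (log axis) in the 6 libraries, ordered by the untreated mean; points are libraries, shapes are trials and short lines are group means (n = 3). Chrna1 lies at 260 to 342 FPKM and Chrne at 0.872 to 2.17 FPKM, and the Musk points of the 2 groups are apart.

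After 12 h of TWEAK, Musk was the member that fell, and 0 of the 10 genes rose. The other 9 did not pass the test. The means of 9 genes lay below those of untreated cells, as did 47.7% of all genes tested, and the mean of Agrn lay above. Groups were compared with limma-trend on log2(FPKM + 1) over all 12770 genes with a mean of at least 0.5 FPKM, with Benjamini-Hochberg adjusted p-values and a threshold of 0.05; all 10 members passed that filter. In that test 6.1% of all genes were lower with TWEAK and 8.98% were higher, so 1 of 10 is close to the background. By unadjusted p below 0.05, 3 members were lower and 0 higher, against 13.3% and 17.0% of all genes. With limma-voom on recovered reads, 1 member was lower and 0 higher (7.08% and 9.54% of all genes). With limma-voom blocked by trial, which was added after the values were seen, 5 members were lower and 0 higher (14.9% and 16.6% of all genes). The median log2 fold change was -0.20 over the members and 0.01 over all genes tested.

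Musk encodes the muscle-specific receptor kinase at the centre of the pathway (ENSMUSG00000057280.16, chromosome 4, 58285960 to 58374303). Its level was 19.8, 17.1 and 16.2 FPKM in TWEAK replicates 1, 2 and 3 and 24.2, 25.3 and 23.8 FPKM in the untreated replicates. Every TWEAK library lay below every untreated one, and the lowest was TWEAK replicate 3. The means were 17.7 ± 1.85 and 24.4 ± 0.779 FPKM (SD, n = 3 each), a 1.38-fold lower level with TWEAK. The limma log2 fold change was -0.45 (SE 0.08, 95% interval -0.63 to -0.27, adjusted p = 0.00725). The values rest on 1649 to 3296 reads per library. Musk passed under all 13 alternatives tried, with limma adjusted p-values from 9.32e-06 to 0.0395 and log2 fold changes from -0.53 to -0.39. Blocking by trial gave Musk a limma adjusted p of 0.000319. The authors' deposited table gives Musk a log2 fold change of -0.47 with an adjusted p of 1.78e-06, and it is the single member under 0.05 there; 9.38% of genes with an adjusted p in that table are lower and under 0.05.

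**Figure D2:**
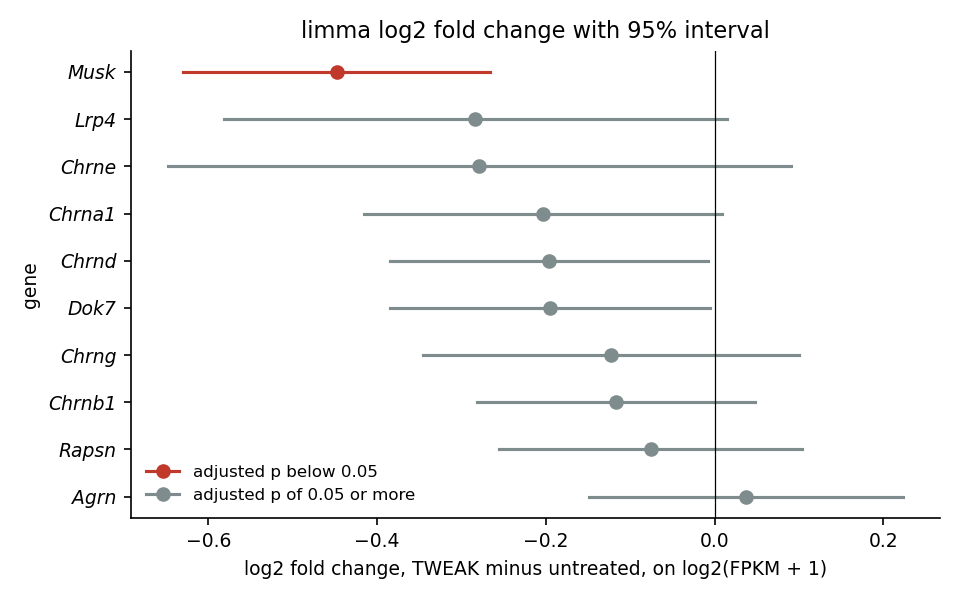
limma log2 fold change of each gene, as TWEAK minus untreated values of log2(FPKM + 1), with its 95% interval (n = 3 per group). Musk, in red, is the gene with an adjusted p below 0.05 and lies at -0.45; the intervals of Lrp4, Chrne, Chrna1, Chrng, Chrnb1, Rapsn and Agrn include 0.

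Agrn encodes agrin, the ligand, which is best known from nerve and is also made by muscle (ENSMUSG00000041936.19, chromosome 4, 156249747 to 156281945). It was low among the members, at 6.63, 7.22 and 7.26 FPKM with TWEAK and 6.15, 7.40 and 6.99 FPKM without. Of all genes tested, 44.2% had a lower mean untreated level. The groups overlapped (log2 fold change 0.04, 95% interval -0.15 to 0.22, limma adjusted p = 0.802). Without untreated replicate 1 the sign turned, to a log2 fold change of -0.03.

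Lrp4, the agrin receptor (ENSMUSG00000027253.16, chromosome 2, 91287856 to 91344124), was at 51.9, 49.8 and 37.6 FPKM with TWEAK and at 57.4, 63.6 and 48.5 FPKM without. The groups overlapped, because trial 3 was the lowest in both, but in each trial the TWEAK library was the lower one. The log2 fold change was -0.28 (SE 0.13, 95% interval -0.58 to 0.01), with a limma adjusted p of 0.185. With trial as a block, which compares libraries within trials, the limma adjusted p was 0.00645, and Lrp4 then passed beside Musk. In that fit 12.5% of all genes were lower with TWEAK and 15.4% higher.

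Dok7, the cytoplasmic activator of MuSK (ENSMUSG00000044716.13, chromosome 5, 35214110 to 35245183), was at 24.9, 22.7 and 24.7 FPKM with TWEAK and at 27.6, 30.9 and 25.0 FPKM without. The groups did not overlap, but the nearest libraries, TWEAK replicate 1 and untreated replicate 3, were almost level. Its log2 fold change was -0.20 (95% interval -0.38 to -0.01, limma adjusted p = 0.154). In limma-voom blocked by trial Dok7 passed (adjusted p = 0.0417), and in limma-trend with the same block it did not. Rapsn, the scaffold (ENSMUSG00000002104.12, chromosome 2, 90865965 to 90876074), was at 121, 108 and 116 FPKM with TWEAK and 131, 122 and 112 FPKM without. These groups overlapped (log2 fold change -0.08, 95% interval -0.26 to 0.10, limma adjusted p = 0.569). Rapsn overlaps the noncoding gene Gm13778, which lay at 0.505 to 1.13 FPKM.

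Among the receptor subunits, 0 passed the test in either direction, and 0 passed in limma-trend blocked by trial. In limma-voom blocked by trial, Chrna1 (adjusted p = 0.0498) and Chrnd (0.0392) were lower. Chrna1, the acetylcholine-binding alpha subunit (ENSMUSG00000027107.4, chromosome 2, 73393559 to 73410682), was at 289.5, 260 and 328 FPKM with TWEAK and at 325, 342 and 339 FPKM without. TWEAK replicate 3 lay among the untreated libraries and the other two below them. The means were 293 ± 33.9 and 336 ± 9.20 FPKM (SD, n = 3 each), with a log2 fold change of -0.20 (95% interval -0.42 to 0.01, limma adjusted p = 0.181). Without TWEAK replicate 3, Chrna1 passed (log2 fold change -0.29, limma adjusted p = 0.0374).

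Chrnd, the delta subunit (ENSMUSG00000026251.14, chromosome 1, 87118359 to 87127792), was at 135, 113 and 128 FPKM with TWEAK and 148, 147 and 136 FPKM without. The groups did not overlap, though TWEAK replicate 1 and untreated replicate 3 were again almost level (log2 fold change -0.20, 95% interval -0.38 to -0.01, limma adjusted p = 0.15). Chrnb1, the beta subunit (ENSMUSG00000041189.10, chromosome 11, 69674862 to 69686769), was at 108, 99.2 and 102 FPKM with TWEAK and 114, 118 and 104 FPKM without, and the groups overlapped (log2 fold change -0.12, 95% interval -0.28 to 0.05, limma adjusted p = 0.319). Every TWEAK library was thus below every untreated one in 3 members, Musk, Chrnd and Dok7, against 15.9% of all genes tested.

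Chrng, the fetal gamma subunit, lies next to Chrnd (ENSMUSG00000026253.15, chromosome 1, 87132379 to 87140416). It was at 215, 178 and 228 FPKM with TWEAK and at 232, 228 and 213 FPKM without. The groups overlapped, and TWEAK replicate 2 was the lowest of the 6 libraries (log2 fold change -0.12, 95% interval -0.34 to 0.10, limma adjusted p = 0.446). Chrne, the adult epsilon subunit (ENSMUSG00000014609.17, chromosome 11, 70505709 to 70510042), was at 1.49, 0.872 and 2.04 FPKM with TWEAK and at 1.59, 2.17 and 2.08 FPKM without. The groups overlapped, with TWEAK replicate 2 the lowest (log2 fold change -0.28, 95% interval -0.65 to 0.09, limma adjusted p = 0.289). Chrne rests on 49 to 136 reads per library, against 17216 to 24007 for Chrng. Pooled over libraries, Chrne had 220 reads with TWEAK and 336 without, a ratio per size factor of 0.734 (95% exact binomial interval 0.617 to 0.873, which covers counting error only).

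The fetal subunit exceeded the adult subunit by 103-fold to 204-fold in the 6 libraries. The ratio of Chrng to Chrne FPKM was 145, 204 and 112 in TWEAK replicates 1, 2 and 3 and 146, 105 and 103 in the untreated replicates. The groups overlapped, and TWEAK replicate 2 stood highest. In TWEAK replicate 2 the exact binomial interval of the ratio from read counts was 154 to 276, and in untreated replicate 2 it was 87.7 to 128. In trial 1 the intervals were 115 to 185 with TWEAK and 118 to 183 without, and in trial 3 they were 92.0 to 138 and 86.7 to 122. The mean ratio was 154 ± 46.7 with TWEAK and 118 ± 24.5 without (SD, n = 3), a log2 difference of 0.36 with an exact two-sided permutation p of 0.3, where 0.1 is the smallest p that 3 against 3 libraries allow. Without TWEAK replicate 2 the log2 difference was 0.13. Chrng made up 99.3% ± 0.198 of the sum of Chrng and Chrne with TWEAK and 99.1% ± 0.159 without (exact permutation p = 0.3).

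**Figure D3:**
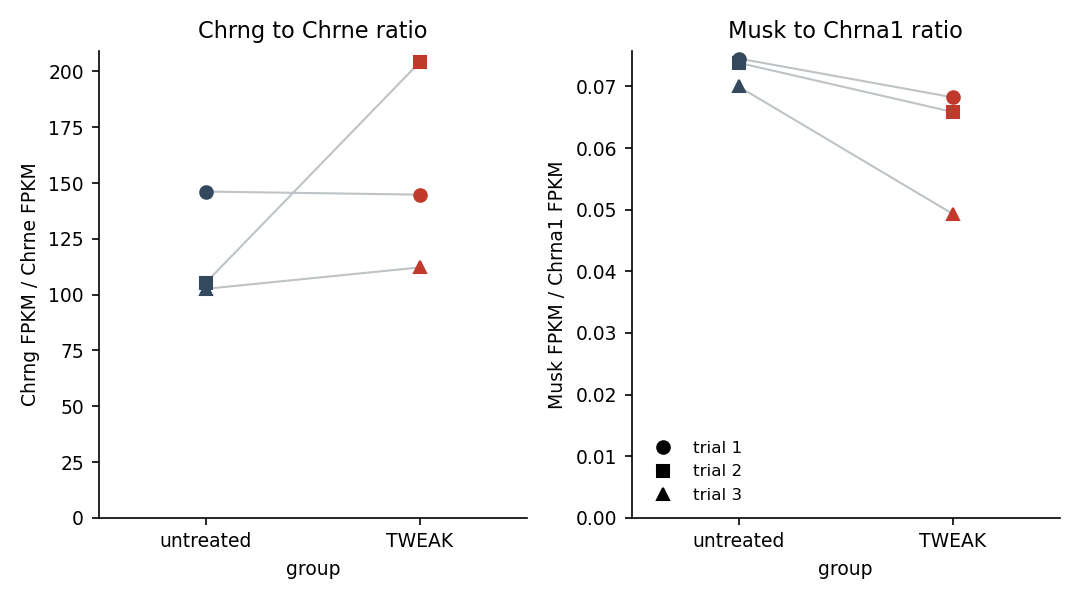
Ratio of Chrng to Chrne FPKM (left) and of Musk to Chrna1 FPKM (right) in each library; lines join the untreated and TWEAK library of a trial. The Chrng to Chrne ratio of trial 2 goes from 105 to 204 while the other trials stay near level, and all 3 lines of the Musk to Chrna1 ratio run down.

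The proportions of the abundant subunits overlapped between the groups. The ratio of Chrna1 to Chrnd FPKM was 2.14 to 2.55 in TWEAK libraries and 2.19 to 2.50 in untreated ones, that of Chrna1 to Chrnb1 was 2.62 to 3.21 and 2.86 to 3.27, and that of Chrna1 to Chrng was 1.35 to 1.46 and 1.40 to 1.59. The ratio of Musk to Chrna1, a comparison added after the values were seen, was 0.0682, 0.0659 and 0.0493 with TWEAK and 0.0745, 0.0738 and 0.0700 without. These groups did not overlap, with a log2 difference of -0.27 and an exact permutation p of 0.1. That is the smallest p that the design allows, so this test could not have passed 0.05 whatever the values. Without TWEAK replicate 3 the log2 difference was -0.12.

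Within trials, 7 of the 10 genes were lower with TWEAK in all 3 trials (Chrna1, Chrnb1, Chrnd, Chrne, Lrp4, Musk and Dok7), as were 27.5% of all genes tested. All of them were measured in the same 6 libraries and are not separate observations. Trial 2 gave the lowest ratio of TWEAK to untreated in 9 of the 10 genes, against 32.3% of all genes. In trial 2 the log2 ratio was -0.40 for Chrna1, -0.36 for Chrng and -0.44 for Dok7, and in trial 3 it was -0.05, 0.10 and -0.02. Lrp4, Musk and Agrn had a different order, with log2 ratios of -0.37, -0.55 and 0.06 in trial 3 and -0.14, -0.29 and 0.11 in trial 1. TWEAK replicate 2 was the lowest TWEAK library for 7 members, against 25.1% of all genes, while TWEAK replicate 3 was the lowest for Lrp4 and Musk and TWEAK replicate 1 for Agrn.

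**Figure D4:**
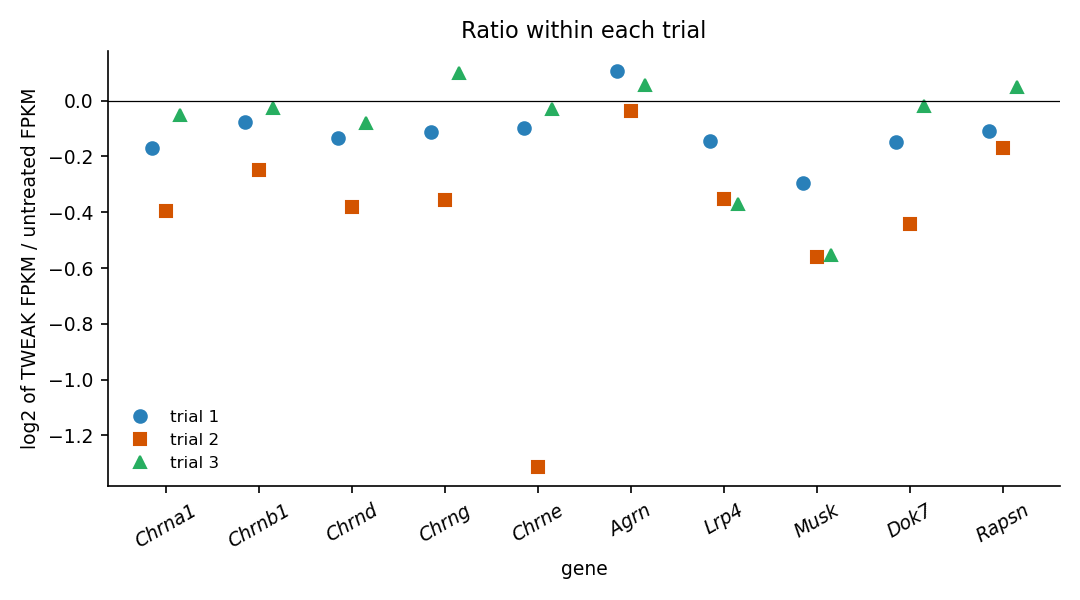
log2 ratio of TWEAK to untreated FPKM within each of the 3 trials for each gene. Trial 2 lies lowest for 9 genes, Chrne reaches -1.31 there, and the Musk values are -0.29, -0.56 and -0.55.

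The genes whose pattern over the 6 libraries was most like that of Musk were Sned1 (Pearson r = 0.9987), Mir133a-1hg (r = 0.9973) and Palld (r = 0.9969), on log2(FPKM + 1). The libraries share the treatment, so these values are a description. Sned1 was at 1.65 FPKM with TWEAK and 3.24 without, Mir133a-1hg, the host transcript of a muscle microRNA, at 1.15 and 2.17, and Palld, which encodes the actin-bundling protein palladin, at 38.7 and 54.6.

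Other genes around the synapse were read from lists chosen by function. Of 24 tested partners and effectors of MuSK signalling, 1 rose and 1 fell, against 8.98% and 6.1% of all genes tested, with a median log2 fold change of -0.06, beside 0.01 over all genes. Epha4, a receptor tyrosine kinase of the ephrin system, fell from 5.23 ± 0.462 to 3.47 ± 0.181 FPKM (log2 fold change -0.48 with an SE of 0.08, limma adjusted p = 0.00619). The adaptors Crk and Crkl, which bind Dok7, were at 35.3 and 14.9 FPKM with TWEAK and at 37.2 and 16.8 FPKM without (limma adjusted p = 0.551 and 0.205). Blocking by trial made it 4 lower and 1 higher in this list, against 12.5% and 15.4% of all genes.

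Of 20 tested scaffold and basal lamina genes of the postsynaptic membrane, 0 rose and 3 fell (8.98% and 6.1% of all genes), with a median log2 fold change of -0.18. By unadjusted p below 0.05, 3 were higher and 8 lower (17.0% and 13.3% of all genes). With limma-voom 0 rose and 3 fell (9.54% and 7.08%), and with the replicate block 2 rose and 9 fell (15.4% and 12.5%). Sntb1, which encodes beta1-syntrophin of the dystrophin complex, was at 15.2, 13.1 and 11.3 FPKM with TWEAK and 25.2, 21.6 and 21.8 FPKM without. The groups did not overlap, and it was 1.73-fold lower (log2 fold change -0.75 with an SE of 0.11, limma adjusted p = 0.00246). Nid2, a nidogen of the basal lamina, fell from 101 to 77.6 FPKM, but it overlaps Rtraf, at 64.2 to 75.9 FPKM, and its call was lost without untreated replicate 2 (limma adjusted p = 0.0511) or with no filter on low values (0.057). The sodium channel gene Scn4a fell from 21.5 to 17.6 FPKM (limma adjusted p = 0.0225), and this call was lost without TWEAK replicate 2 (0.113), untreated replicate 1 (0.0719), 2 (0.0794) or 3 (0.05), and with no filter (0.0514). Utrn, the gene of the synaptic dystrophin homologue utrophin, stood at 18.5 ± 4.76 with and 23.9 ± 2.66 FPKM without TWEAK (limma adjusted p = 0.162; blocking by trial gave 0.00293).

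Of 22 tested transcription and neuregulin-ErbB genes that act on synaptic transcription, 2 rose and 6 fell (8.98% and 6.1% of all genes), with a median log2 fold change of -0.21; with the replicate block 4 rose and 11 fell (15.4% and 12.5%). Nrg1, which encodes the ligand neuregulin-1, was at 5.17, 6.17 and 4.66 FPKM with TWEAK and 2.38, 3.23 and 3.07 FPKM without. All TWEAK libraries were above all untreated ones (log2 fold change 0.70 with an SE of 0.12, limma adjusted p = 0.00499). Of its receptor genes, singled out after their values were seen, Erbb3 fell to 30.6 FPKM from 42.1 (limma adjusted p = 0.0252), and Erbb2 stood at 20.2 FPKM with TWEAK and 26.3 without (0.0504). Erbb2 passed, as lower, with the replicate block (limma adjusted p = 0.00356), with limma-voom (0.0401; 0.000248 with the block), after median rescaling (0.0456), and without TWEAK replicate 1 (0.0247) or untreated replicate 3 (0.0285). Erbb3 no longer passed when TWEAK replicate 2 (0.103) or 3 (0.0676), or untreated replicate 1 (0.0866) or 2 (0.0939), was left out, or with no filter (0.112), and Erbb4 was listed at 0 in all 6 libraries. The N-box factor gene Gabpa and the ETS factor gene Etv5 were at 15.3 and 2.67 FPKM with TWEAK and 17.0 and 2.89 without (limma adjusted p = 0.245 and 0.67).

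The E-proteins are the partners of MyoD-family factors on E-boxes. Tcf4 fell from 16.2 to 11.5 FPKM (limma adjusted p = 0.00748), and Tcf3 rose from 24.3 to 29.8 FPKM (0.0357). The Tcf3 call was lost without TWEAK replicate 2 (0.15), untreated replicate 1 (0.107) or untreated replicate 3 (0.104), and with no filter (0.0901). Mef2c and Myf5 were the other fallen genes of this list that the selection rule named, at 1.75-fold and 1.51-fold lower levels.

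Of 14 tested genes of receptor assembly, glycosylation and turnover, 3 rose and 0 fell (8.98% and 6.1% of all genes), with a median log2 fold change of 0.02; with the replicate block 3 rose and 3 fell (15.4% and 12.5%). By unadjusted p below 0.05, 3 were higher and 3 lower (17.0% and 13.3% of all genes), and with limma-voom 3 rose and 0 fell (9.54% and 7.08%). Ufsp1, a peptidase gene enriched in nuclei under the synapse, was at 3.80, 5.74 and 5.47 FPKM with TWEAK and 1.25, 1.73 and 1.26 FPKM without. All TWEAK libraries lay above all untreated ones, a 3.54-fold difference (log2 fold change 1.30 with an SE of 0.14, limma adjusted p = 0.000511). Ufsp1 starts 162 bases after the end of Ache, the acetylcholinesterase gene, which was at 6.02 to 8.74 FPKM with TWEAK and 0.415 to 0.762 FPKM without; whether reads of Ache reach Ufsp1 was not tested. The other risen genes were the ubiquitin ligase genes Trim63 and Fbxo32. The Fbxo32 call was lost with no filter on low values (limma adjusted p = 0.0554).

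Of 11 genes responsive to denervation that were tested, 2 rose and 3 fell (8.98% and 6.1% of all genes), with a median log2 fold change of -0.18. With the replicate block 2 rose and 5 fell (15.4% and 12.5%), and with limma-voom 2 rose and 4 fell (9.54% and 7.08%). The rises were again Trim63 and Fbxo32. The fallen genes included Myh8 and Myh3, the perinatal and embryonic myosin heavy chains. Runx1 and Ncam1, a transcription factor and an adhesion molecule that denervated fibres express, were at 22.2 and 94.4 FPKM with TWEAK and 26.3 and 91.9 FPKM without (limma adjusted p = 0.0648 and 0.845; blocking by trial gave 0.0239 and 0.708). In a list of 13 fetal and adult isoform genes, 0 rose and 9 fell (8.98% and 6.1% of all genes), with a median log2 fold change of -0.50, and the fallen ones included the embryonic Myh3 and the adult Scn4a. By unadjusted p below 0.05, 10 of the 13 were lower and 0 higher (13.3% and 17.0% of all genes). With limma-voom 9 fell and 0 rose (7.08% and 9.54%), and with the replicate block 10 fell and 0 rose (12.5% and 15.4%).

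The 11 neuronal nicotinic subunit genes were all below 0.5 FPKM. Chrnb2 was the highest, at up to 0.382 FPKM, with 195 reads with TWEAK and 168 without. Chrna3, Chrna4, Chrna5, Chrna6, Chrna7 and Chrnb3 were listed at 0 in all 6 libraries, and the others had at most 3 reads in a group.

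Of 8 myotube markers, 2 fell (Myh3 and Actn2) and 0 rose, against 6.1% and 8.98% of all genes tested. By unadjusted p below 0.05, 3 were lower and 0 higher (13.3% and 17.0%). With limma-voom 2 fell and 0 rose (7.08% and 9.54%), as with the replicate block (12.5% and 15.4%). The calls of Myh3 and Actn2 were lost with no filter on low values (limma adjusted p = 0.0619 and 0.0637). The 8 markers summed to 11500 to 12800 FPKM with TWEAK and 12700 to 14200 without. The 6 markers of undifferentiated myoblasts summed to 71.3 to 92.6 FPKM with TWEAK and 71.9 to 90.8 without, but single markers moved in opposite directions. Of the 6, 2 rose and 3 fell, against 8.98% and 6.1% of all genes tested. Cd34 and Ccnd1 were 2.0-fold and 1.9-fold higher, and Id1, Id3 and Myf5 were 1.8-fold, 1.7-fold and 1.5-fold lower. The Ccnd1 call was lost without TWEAK replicate 2 (limma adjusted p = 0.0727) or 3 (0.0536) or untreated replicate 1 (0.063) or 3 (0.059). With no filter, Ccnd1 (0.125) and Cd34 (0.0805) did not pass. The labels call the cell type myoblast, while the treatment was given to differentiated cultures; in bulk RNA, fewer cells of a type and less RNA per cell cannot be told apart. Their part in the Musk result was not tested. The 6 motor neuron markers summed to at most 0.240 FPKM in any library, with Chat, Mnx1, Slc18a3 and Snap25 at 0 throughout. The 5 Schwann cell markers summed to at most 0.723 FPKM, with Sox10 at 0, the 4 endothelial markers to at most 0.104 FPKM, the 5 macrophage markers to at most 1.65 FPKM, with Adgre1 at 0, and the 4 adipocyte markers to at most 3.24 FPKM, with Plin1 at 0. The 5 fibroblast markers summed to 453 to 708 FPKM with TWEAK and 573 to 746 without, and 0 of the 4 tested passed in limma (0 by unadjusted p below 0.05 and 0 with limma-voom), while 1 fell with the replicate block.

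The libraries held 29789960 to 40663828 recovered reads, of which mitochondrially encoded genes took 2.14% to 2.90%.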

How the data were processed

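RNA was sequenced from poly(A)-selected libraries of 3 TWEAK-treated and 3 untreated C2C12 samples. Per the submitters' processing notes, the tools were DESeq2 1.22.2, HTSeq 0.6.1p2, STAR 2.6.0c and Trim Galore 0.5.0, and the build GRCm39. Settings, annotation release and use of strand are not stated there. Per the file headers, the deposited table holds FPKM per library and the authors' own comparison: a mean normalized signal, a log2 fold change with its standard error, a score (test statistic) and p-values. That mean is above 0 for 2337 genes without a read in these 6 libraries; the libraries behind that mean are not named there. The number of per-sample columns without a sample was 0.

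The members, gene lists and tests were chosen with earlier results of these data known. FPKM were tested as deposited with limma-trend (limma 3.58.1, R 4.3.3) on log2(FPKM + 1), which understates changes near 0, over genes with a mean of at least 0.5 FPKM, group as the only term. Folds are ratios of mean FPKM. Whole reads were recovered from the FPKM steps: the 126386 nonzero values were all whole to a relative tolerance of 1e-06, taking the smallest numbers of reads that give a whole gene length, so that a hidden common factor would lower a gene's count. They served for depth, intervals and limma-voom. Named genes were the members, up to 3 risen and 3 fallen genes of each list by adjusted p, and the 3 genes most like the called member with the largest change; others were chosen after their values were seen. Some genes that the rule names are not reported here. Ratios were tested by exact permutation. Alternatives were another pseudocount, 2 other filters, median rescaling, the replicate block, limma-voom and leaving out each library. Python 3.11.15, numpy 2.4.6, pandas 2.3.3, scipy 1.17.1 and matplotlib 3.10.9 were used.

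The main fit and the permutation tests did not pair libraries. The replicate block paired them by trial number on the strength of the data, not the labels: deviations from the group means correlated across genes at 0.473, 0.218 and 0.434 between libraries of the same trial, against at most -0.02 between trials. Deviations cancel within a group, so the values between trials are not separate evidence.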

Additional observations from a re-analysis of the deposited data

How the results depend on the processing

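Musk kept its direction and its call under all 13 alternatives. Of the 10 members, 1 fell in the main fit; 2 fell with the replicate block (Musk and Lrp4), 2 without TWEAK replicate 3 (Musk and Chrna1), and 1 to 2 over the fits that left out single libraries; 5 fell in limma-voom with the replicate block, an alternative chosen after seeing the data, which added Chrna1 (adjusted p = 0.0498), Chrnd (0.0392), Dok7 (0.0417) and Lrp4 (0.00238), against 14.9% of all genes lower in that fit. The cause was not tested. No member rose under any alternative.

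Over all genes, 1926 passed in the main fit (1147 higher, 779 lower), 801 without a filter (499 and 302, with more genes tested), 3563 with the replicate block (1965 and 1598) and 4018 in limma-voom with it (2118 and 1900). Leaving out single libraries gave 844 to 2101 genes, 501 to 1266 higher and 343 to 835 lower. The log2 difference in the Chrng to Chrne ratio was 0.32 and 0.16 with pseudocounts of 0.1 and 1, and 0.13 to 0.56 without single libraries. The same difference taken within trials, as the replicate block, had an exact sign-flip p of 0.5, where 0.25 is the smallest possible. Few Chrne reads widen the counting interval of that ratio, and libraries of a group also differed beyond it. That interval was 154 to 276 in TWEAK replicate 2 and 92.0 to 138 in TWEAK replicate 3. With limma-trend, the block changed no member's call but that of Lrp4.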
